A study of Mus musculus with 24 samples.

Results

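The genes described here are 9 genes that the ERK branch of MAPK signaling induces and that act back on it or carry its output: the phosphatase genes *Dusp4*, *Dusp5* and *Dusp7*, the Sprouty genes *Spry1*, *Spry2* and *Spry4*, the Sprouty-related gene *Spred1*, and the ETS transcription factor genes *Etv4* and *Etv5*. They were taken by name from a table of normalized counts for 52636 mouse genes, and all 9 were above 0 in all 24 samples. The table holds RNA sequencing of MC38, a colon carcinoma cell line from C57BL/6 mice, in 8 lines with 3 samples each. MC38-WT is the untransfected parent. MC38-MOCK#1 is the mock-transfected reference of the knockout lines MC38-CMAS KO (*Cmas* targeted), MC38-COSMC KO (*C1galt1c1* targeted) and MC38-DKO (both targeted), all kept at passages 4 to 6. MC38-MOCK#2 is the reference of the lines labelled MC38-FUT4 and MC38-FUT9, in which a dCas-VPR activator was aimed at a fucosyltransferase gene. MC38-MOCK#2 and MC38-FUT9 were at passages 6 to 8, the line labelled MC38-FUT4 at passages 7, 8 and 7, and MC38-WT at passages 7 to 9. The transfected lines had puromycin selection and are sorted populations, with 1 line for each target. The samples of a line were harvested at separate passages, except samples 1 and 3 of the line labelled MC38-FUT4, which share passage 7, so p-values measure the spread between passages of 1 line and not between clones.

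C1GALT1C1 (COSMC) is the chaperone of T-synthase, which extends the Tn antigen of *O*-glycans, and CMAS activates sialic acid for transfer to glycans. *Cmas* was at 112 ± 17.1 normalized counts (SD, n = 3) in MC38-CMAS KO and 133 ± 10.1 in MC38-DKO, against 395 ± 17.9 in MC38-MOCK#1. *C1galt1c1* was at 144 ± 19.5 in MC38-COSMC KO and 182 ± 21.0 in MC38-DKO, against 238 ± 15.9 in MC38-MOCK#1, with no overlap between either line and MC38-MOCK#1. Its fall passed in MC38-COSMC KO (-0.73 on the log2 scale, limma adjusted p = 0.0128) and not in MC38-DKO. MC38-CMAS KO, at 215, 181 and 152, and MC38-MOCK#2, at 173, 154 and 217, were also below MC38-MOCK#1. *C1galt1c1* was not targeted in either, so its level in MC38-DKO does not set that line apart from them. A frameshift need not lower the RNA, so these levels check the knockouts in part. *Fut9* was at 955, 641 and 676 in MC38-FUT9 and at 0, 0 and 1 in MC38-MOCK#2. In the line labelled MC38-FUT4, *Fut4* was at 1, 0 and 1 while *Fut9* was at 209, 171 and 186, so the RNA goes against that label and the line is named by its label throughout. Epithelial markers were nearly absent: 11 of 12, including *Epcam* and *Cdh1*, stayed below 10 in every sample, and the leukocyte and endothelial lists summed to at most 23 and 36. The mesenchymal list, with *Vim* at 19787 to 33315, summed to 34479 to 52870. Sample totals were 10911849 to 12263307, and the SD of the log2 difference between 2 samples of a line was 0.255 to 0.455. The samples of MC38-WT were all far from each other, at 0.41 to 0.455. Sample 3 of MC38-MOCK#2 stood apart from samples 1 and 2 (0.44 and 0.419, against 0.271 between those 2), and results that rest on it are given with and without it.

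In GRCm38, *Dusp4* lies at chr8:34807297-34819894, *Dusp5* at chr19:53529109-53542431, *Dusp7* at chr9:106368632-106375724, *Spry1* at chr3:37639947-37644598 and *Spred1* at chr2:117121374-117182279 on the + strand, and *Spry2* at chr14:105891949-105896819, *Etv4* at chr11:101769742-101785371 and *Etv5* at chr16:22381309-22439719 on the - strand. Growth factor receptors switch on Ras, and the kinases RAF, MEK and ERK pass the signal to the nucleus. ERK signaling then induces its own brakes. The DUSP proteins remove the activating phosphates from MAP kinases, DUSP4 and DUSP5 in the nucleus and DUSP7 mainly in the cytoplasm, while Sprouty proteins and SPRED1 act upstream at Ras and RAF. ETV4 and ETV5 are transcription factors of the PEA3 group, whose genes are held down by the repressor Capicua until ERK inactivates it. Levels of such genes are widely read as an output of the pathway.

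Promoter windows from RefSeq (GRCm38.p6, 250 bases before to 50 after each start) were matched for 6 of the 9 genes, of which *Etv5* had 2, and were searched on both strands for 5 motif kinds: the CArG box of serum response factor, the ETS core CGGAAG, the Capicua sites TGAATGA and TGAATGG, the AP-1 site TGANTCA and the CRE core TGACGT. The windows of *Dusp5* and the inner start of *Etv5* are shown because they held the most matches. *Dusp5* (chr19:53528895-53529194, + strand) held 2 adjacent CArG boxes, at bases 169 to 178 and 179 to 188 of the window, a CRE core and a Capicua site. *Etv5* (chr16:22438319-22438618, - strand) held 3 Capicua sites, beginning at bases 9, 53 and 121. Matches are in capitals, and the windows read 5′ to 3′ on the gene's strand.
Dusp5: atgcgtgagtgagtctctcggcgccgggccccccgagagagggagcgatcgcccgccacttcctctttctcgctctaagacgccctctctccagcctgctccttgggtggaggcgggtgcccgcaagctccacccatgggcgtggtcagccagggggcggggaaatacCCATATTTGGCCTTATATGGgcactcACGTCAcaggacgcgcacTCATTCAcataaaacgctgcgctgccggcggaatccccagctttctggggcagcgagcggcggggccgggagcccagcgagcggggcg
Etv5: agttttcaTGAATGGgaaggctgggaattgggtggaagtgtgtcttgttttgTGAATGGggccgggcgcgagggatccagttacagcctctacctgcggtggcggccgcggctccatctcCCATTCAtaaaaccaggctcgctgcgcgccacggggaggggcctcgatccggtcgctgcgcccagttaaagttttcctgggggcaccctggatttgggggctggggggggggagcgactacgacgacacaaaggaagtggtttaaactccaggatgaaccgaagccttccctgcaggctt
Of 32851 windows in the table, 1.63% held a CArG box, 16.9% the ETS core, 7.1% a Capicua site, 7.81% an AP-1 site and 7.51% a CRE core. *Spred1* held 2 ETS cores, and the windows of *Spry1*, *Spry2*, *Dusp7* and the outer start of *Etv5* held none of the 5. A match is a description of letters and not a measured site. No binding was measured here.

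The 9 genes spanned a wide range of levels. Per kilobase of exon, the mean over 24 samples was 324 normalized counts for *Etv4*, 148 for *Dusp4*, 144 for *Etv5*, 113 for *Spry2*, 110 for *Spred1* and 101 for *Dusp7*. It was 33.1 for *Dusp5*, 27.2 for *Spry4* and 2.87 for *Spry1*, whose values of 2 to 20 per sample are low and were rounded to whole numbers, so its fold changes are coarse. Across the 8 lines, 7 of the 9 genes differed by a moderated F test in limma, against a background of 46.0% of all 22075 genes tested. The adjusted p was 3.54e-07 for *Dusp4*, 9.9e-06 for *Spred1*, 0.000162 for *Etv4*, 0.000349 for *Dusp7*, 0.00466 for *Dusp5*, 0.0141 for *Etv5* and 0.0233 for *Spry2*. The call for *Spry2* rested on sample 3 of MC38-CMAS KO (adjusted p = 0.0579 without it). *Spry1* (0.0853) and *Spry4* (0.301) did not pass, and both passed without sample 3 of MC38-MOCK#2, at adjusted p-values of 0.00725 and 0.0164. *Spry1* also passed without sample 2 of that line. Differences between lines took up 88.9% of the variance of log2 values for *Dusp4*, 84.6% for *Spred1* and 82% for *Etv4*, against 40% for *Spry4* and a median of 53.9% over all genes tested. The highest line mean (on the log2 scale) exceeded the lowest by 3.68-fold for *Spry1*, 3.46-fold for *Dusp5*, 3.24-fold for *Dusp4* and 2.52-fold for *Dusp7*, and by only 1.3-fold for *Spry4* and 1.44-fold for *Etv4*.

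**Figure D1:**
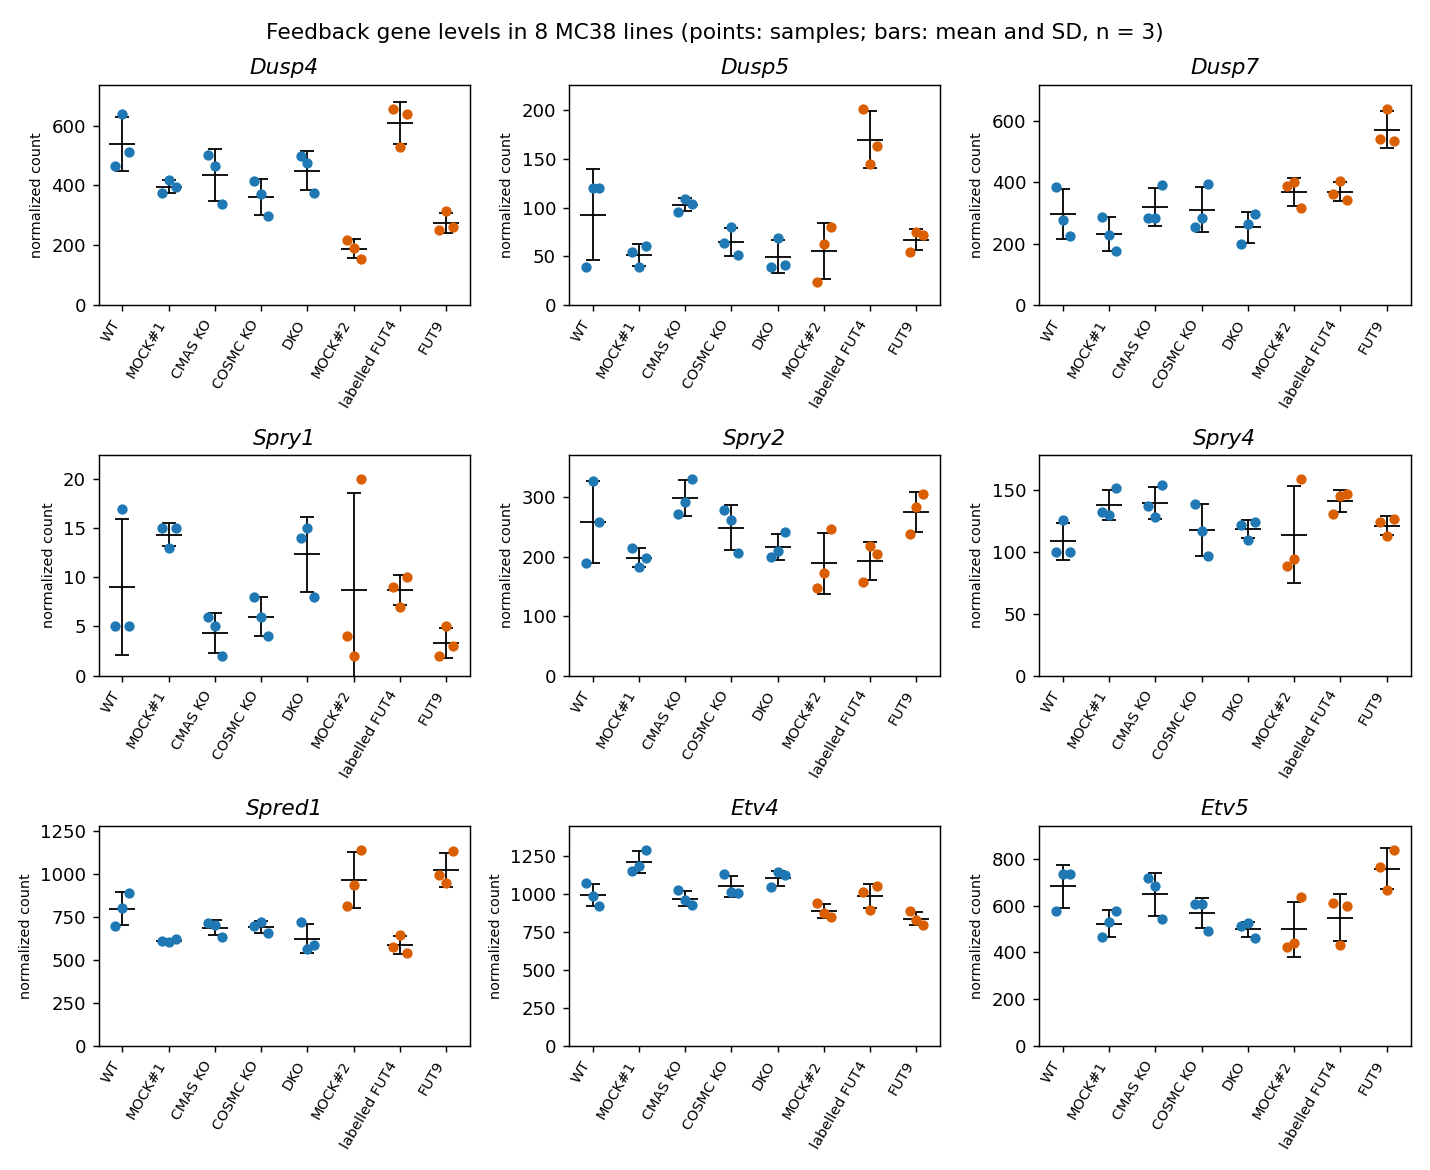
Normalized counts (linear axis from 0) of the 9 feedback genes in the 3 samples of each of 8 MC38 lines (points), with the mean and SD; SD bars are cut at 0. *Dusp4* is highest in the line labelled MC38-FUT4 (mean 608) and lowest in MC38-MOCK#2 (188), while the *Spry4* means stay between 109 and 141.

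The order of the lines differed from gene to gene. *Dusp4* ran from the line labelled MC38-FUT4 (608 ± 69.3) through MC38-WT (538 ± 91.3), MC38-DKO (449 ± 65.6), MC38-CMAS KO (435 ± 86.8), MC38-MOCK#1 (396 ± 22.1), MC38-COSMC KO (362 ± 59.6) and MC38-FUT9 (275 ± 33.9) to MC38-MOCK#2 (188 ± 32.0). In a fit over all 24 samples, the last step was the one between neighbours in this order that passed (adjusted p = 0.014), and the other neighbours overlapped. *Dusp7* was highest in MC38-FUT9 (572 ± 59.5), above the line labelled MC38-FUT4 (370 ± 32.1) by 0.63 on the log2 scale (adjusted p = 0.0213), and no other neighbours in its order differed beyond their spread. For *Dusp5*, *Spry1*, *Spry2*, *Spry4*, *Spred1*, *Etv4* and *Etv5*, no pair of neighbouring lines passed in that fit. *Spred1* was highest in MC38-FUT9 (1023 ± 98.1) and lowest in the line labelled MC38-FUT4 (586 ± 53.0), and *Etv4* ran from 1212 ± 73.1 in MC38-MOCK#1 to 839 ± 44.5 in MC38-FUT9.

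MC38-MOCK#1, MC38-COSMC KO, MC38-CMAS KO and MC38-DKO form a layout of COSMC loss with and without CMAS loss, at the same passages. The change with COSMC loss differed between the 2 CMAS backgrounds for 4 of the 9 genes, 2 in each direction, against 22.1% of all 21396 genes tested. For *Dusp5* and *Spry2* the fitted change was positive with COSMC loss alone and negative on the CMAS-targeted background, and for *Spry1* and *Etv4* the signs were the opposite. Of these 8 single changes, that of *Dusp5* on the CMAS-targeted background passed on its own. The first 3 of these passed in every alternative run for them, including each of the 12 samples left out. The mesenchymal marker list moved in the same layout, with 7 of 11 tested higher and 1 lower, and its part in these results was not tested. In bulk RNA, a lower level in every cell and fewer cells that express the gene cannot be told apart. MC38-WT, with neither gene targeted, differed from MC38-MOCK#1 in the direction of the single knockouts for all 4. Its changes were 0.69 for *Dusp5*, 0.35 for *Spry2*, -0.82 for *Spry1* and -0.28 for *Etv4*, and none passed. Mean *C1galt1c1* was 182 in MC38-DKO and 183 in MC38-CMAS KO. With 1 line for each target, an effect of the targets and other differences between the lines cannot be told apart.

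*Dusp5* was at 55, 39 and 61 normalized counts in MC38-MOCK#1 and at 64, 80 and 51 in MC38-COSMC KO. It was at 96, 109 and 104 in MC38-CMAS KO and at 39, 69 and 41 in MC38-DKO. All 3 MC38-CMAS KO samples lay above the other 9 samples of the layout. The log2 fold change with COSMC loss was 0.33 (SE 0.242) on its own and -1.08 (SE 0.237) on the CMAS-targeted background, a difference of 1.41 (SE 0.351, limma adjusted p = 0.0101).

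*Spry2*, which encodes an inhibitor of signaling from receptor tyrosine kinases to Ras, showed the same layout at a smaller size. It was at 215, 183 and 198 in MC38-MOCK#1, 279, 262 and 206 in MC38-COSMC KO, 272, 293 and 331 in MC38-CMAS KO, and 200, 209 and 242 in MC38-DKO. The 2 changes with COSMC loss were 0.32 and -0.46, and their difference was 0.77 (SE 0.184, limma adjusted p = 0.00771). The 3 MC38-CMAS KO samples lay above those of MC38-MOCK#1 and MC38-DKO and overlapped MC38-COSMC KO.

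*Spry1*, the lowest of the 9, had the mirror pattern. It was at 15, 13 and 15 in MC38-MOCK#1 and at 14, 15 and 8 in MC38-DKO, but at 8, 6 and 4 in MC38-COSMC KO and at 6, 5 and 2 in MC38-CMAS KO. Both single knockouts lay below both other lines or, for the highest MC38-COSMC KO and the lowest MC38-DKO sample, level with them. The difference of the COSMC changes was -2.54 (SE 0.596, limma adjusted p = 0.00721) and ranged from -2.8 to -1.87 over the alternatives.

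*Etv4* was at 1156, 1186 and 1295 in MC38-MOCK#1, 1134, 1014 and 1007 in MC38-COSMC KO, 1027, 961 and 928 in MC38-CMAS KO, and 1048, 1144 and 1124 in MC38-DKO. MC38-COSMC KO (-0.21) and MC38-CMAS KO (-0.32) each lay below MC38-MOCK#1 with no overlap. The change in MC38-DKO was -0.13 (limma adjusted p = 0.717). Of all genes, 28.4% had no overlap in MC38-COSMC KO and 24.3% in MC38-CMAS KO. The difference of the COSMC changes was -0.39 (SE 0.105, limma adjusted p = 0.0154, and 0.0564 without a mean-variance trend). Its partner *Etv5* had a difference of the opposite sign, 0.48 (SE 0.17), which missed the threshold (adjusted p = 0.0575), as did *Dusp7* at 0.77 (0.0793) and *Spred1* at 0.32 (0.0974). *Dusp4* (-0.20, 95% interval -0.67 to 0.28) and *Spry4* (-0.01, -0.45 to 0.44) showed no detectable difference. *Etv5* passed under median-of-ratios scaling, which made 3 higher and 2 lower, among genes with a mean of at least 10, and without sample 3 of MC38-MOCK#1, of MC38-CMAS KO or of MC38-COSMC KO, *Dusp7* without sample 1 of MC38-MOCK#1, and *Spred1* without sample 1 of MC38-DKO, with adjusted p-values down to 0.015, 0.038 and 0.0125.

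**Figure D2:**
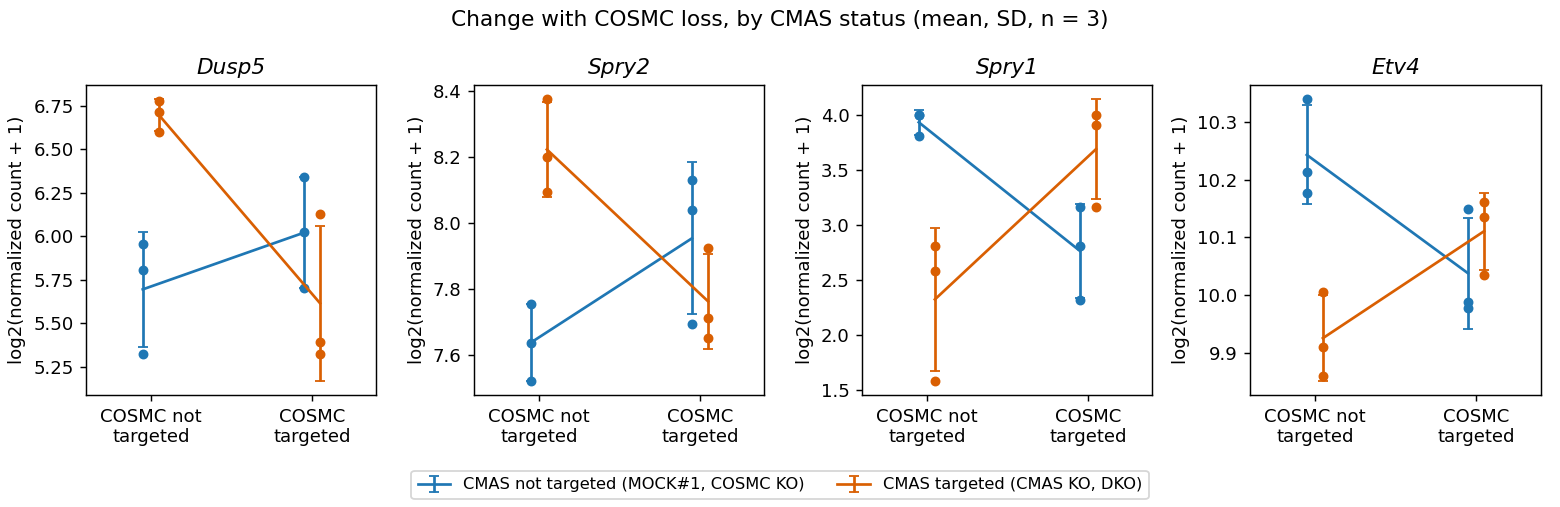
log2(normalized count + 1) of 4 genes without and with COSMC targeting, in lines without (blue) and with (orange) CMAS targeting; points are samples, lines join means, and bars are the SD (n = 3). The axes do not start at 0. The lines cross in all 4 panels, with differences of the COSMC changes of 1.41 for *Dusp5*, 0.77 for *Spry2*, -2.54 for *Spry1* and -0.39 for *Etv4*.

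Against MC38-MOCK#1 alone, none of the 9 genes passed in MC38-COSMC KO, where 11.6% of 22172 genes did. The smallest p-values were unadjusted 0.0102 for *Spry1* (log2 fold change -1.17, SE 0.34), 0.0252 for *Etv4* (-0.21), 0.0256 for *Spred1* (0.18) and 0.0493 for *Spry2* (0.32), so 4 of 9 were under 0.05 before adjustment, against 26.0% of all genes. The samples of *Spry1*, *Etv4* and *Spred1* did not overlap between the 2 lines, nor did those of 28.4% of all genes. The median log2 fold change of the 9 was 0.12, against 0 over all genes. The 95% intervals kept *Dusp4* within -0.44 to 0.15, *Spry4* within -0.61 to 0.13 and *Etv5* within -0.15 to 0.39, while *Dusp7*, at 0.44, could lie from -0.07 to 0.94. Count tests were not run on these rounded normalized values.

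In MC38-CMAS KO, 2 of the 9 genes rose against MC38-MOCK#1, where 5.76% of 22024 genes passed. *Dusp5* rose by 1.00 on the log2 scale (SE 0.195, limma adjusted p = 0.033), a 2.01-fold change, and *Spry2* by 0.58 (SE 0.11, adjusted p = 0.0295), a 1.5-fold change. Both were higher in 3 of 3 samples with no overlap. *Spry1* (-1.61), *Spred1* (0.16) and *Etv4* also had no overlap and did not pass. Of all genes, 24.3% had no overlap. *Etv4* was lower by -0.32 (SE 0.071, adjusted p = 0.0507) and passed after either other scaling, which made the split 2 higher and 1 lower. Both calls were lost when any 1 of the 6 samples was left out, with log2 fold changes of 0.82 to 1.13 for *Dusp5* and 0.51 to 0.65 for *Spry2* and adjusted p-values up to 0.136 and 0.13. *Krt20*, the one epithelial marker that passed 10 in any sample, was at 44, 41 and 30 in MC38-CMAS KO and at 0, 0 and 2 in MC38-MOCK#1, and none of the other 3 epithelial markers tested passed. Of the mesenchymal list, 6 of 11 tested were higher and 1 lower. The part of either list in the result was not tested.

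MC38-DKO stood close to MC38-MOCK#1: none of the 9 passed, nor did any reach an unadjusted p of 0.05, and 0.0920% of 21738 genes (20) were called. The fold changes of the 9 lay between -0.24 (*Spry1*) and 0.17 (*Dusp4*). Against MC38-CMAS KO, where 6.93% of 21858 genes were called, MC38-DKO had lower *Dusp5* by -1.08 (SE 0.237, limma adjusted p = 0.0346). The call was lost without any 1 of the 3 MC38-CMAS KO samples or MC38-DKO samples 1 and 3, at -1.13 to -0.94 and adjusted p-values up to 0.162. *Spry1*, *Spry2*, *Spry4*, *Etv4* and *Etv5* also had no overlap between these lines, at 1.37, -0.46, -0.23, 0.19 and -0.37, and did not pass. With *Dusp5* these are 6 of 9, against 24.5% of all genes. These comparisons share samples, so their values for a gene are not independent.

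In MC38-WT, none of the 9 passed against MC38-MOCK#1 by limma, and 5.51% of 21621 genes did. The MC38-WT samples were widely spread, with *Dusp5* at 39, 120 and 120. Unadjusted p was under 0.05 for *Dusp4*, *Spred1*, *Etv4* and *Etv5*, against 20.7% of all genes. *Spred1* was at 699, 804 and 891 in MC38-WT and 610, 605 and 620 in MC38-MOCK#1, at 0.38 (SE 0.102, adjusted p = 0.0842), and passed without sample 1 of MC38-WT. In 1 fit of all 8 lines it and *Etv4* passed (0.03 and 0.0154). The 2 lines share no passage, so line and passage cannot be told apart here.

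Between the 2 mock lines, 3 of the 9 genes differed, against 11.3% of 21667 genes. *Dusp4* was at 219, 190 and 155 in MC38-MOCK#2 and at 375, 419 and 394 in MC38-MOCK#1, lower by -1.08 on the log2 scale (SE 0.137, limma adjusted p = 0.00555, and 0.0552 without sample 2 of MC38-MOCK#1). *Spred1* was higher in MC38-MOCK#2, at 815, 935 and 1141 against 610, 605 and 620, by 0.64 (SE 0.122, adjusted p = 0.0203). *Etv4* was lower, at 943, 880 and 849, by -0.44 (SE 0.0744, adjusted p = 0.0136). None of the 3 overlapped between the lines, nor did 28.7% of all genes. The *Spred1* call was lost without any 1 MC38-MOCK#1 sample or sample 2 of MC38-MOCK#2 (adjusted p up to 0.104), and that of *Etv4* without sample 2 of either line (up to 0.0736). Rescaled to the same total, *Dusp7* (0.70, SE 0.189, adjusted p = 0.0616) also passed, which made 2 higher and 2 lower. *Spry1*, at 4, 2 and 20 against 15, 13 and 15, had a log2 fold change of -1.17 (adjusted p = 0.333) and passed as lower without sample 3 of MC38-MOCK#2 (-1.98, adjusted p = 0.0382). At passage 6, the one both lines share, MC38-MOCK#2 and MC38-MOCK#1 had 219 and 394 for *Dusp4*, 815 and 620 for *Spred1* and 943 and 1295 for *Etv4*.

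**Figure D3:**
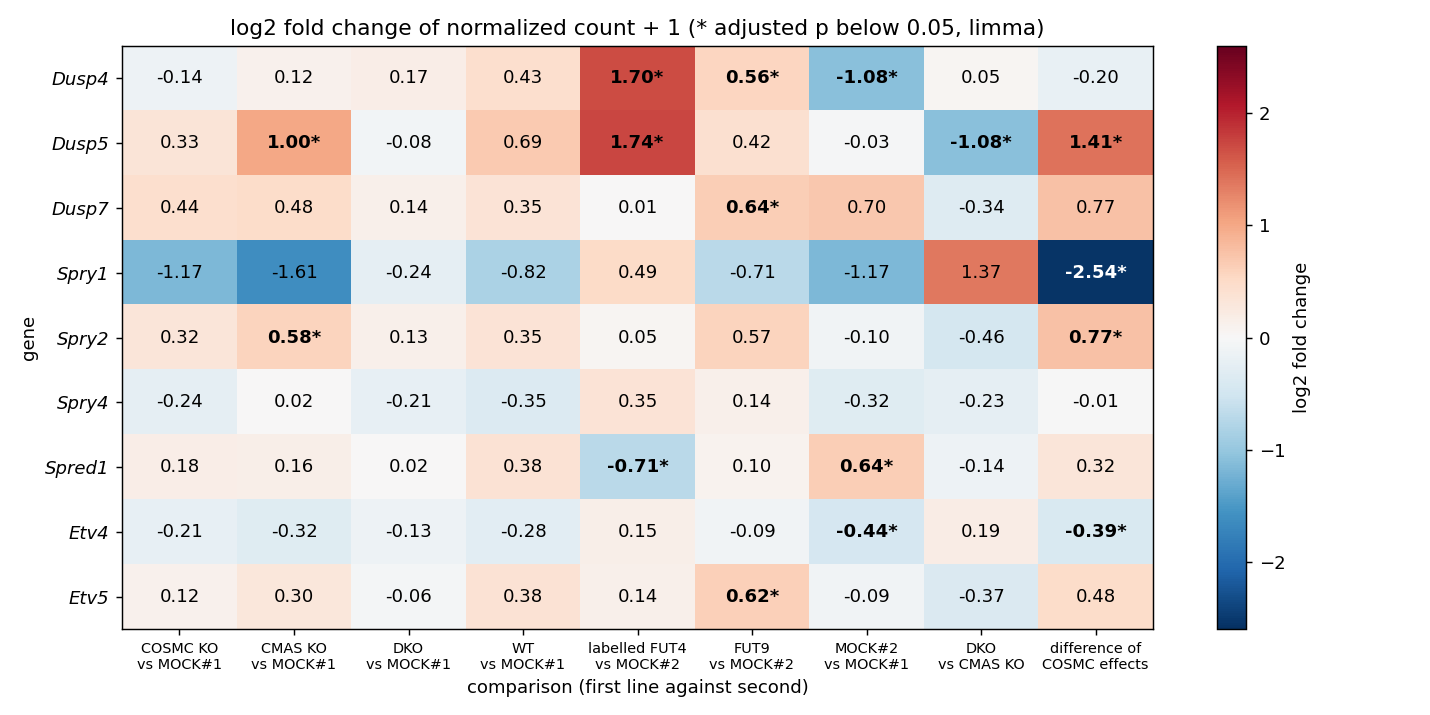
log2 fold changes of normalized count + 1 for the 9 genes (rows) in 8 comparisons of lines and in the difference of the COSMC changes (columns); stars mark adjusted p below 0.05 in limma. No gene is starred for MC38-COSMC KO, MC38-DKO or MC38-WT against MC38-MOCK#1.

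In the line labelled MC38-FUT4, 3 of the 9 genes differed from MC38-MOCK#2, against 16.1% of 21734 genes. *Dusp4* was at 657, 529 and 639 against 219, 190 and 155, higher by 1.70 (SE 0.148, limma adjusted p = 0.00084), a 3.24-fold change that passed in all 17 alternatives. This reference had the lowest *Dusp4* of the 8 lines, and the level in the line labelled MC38-FUT4 overlapped that of MC38-WT (464, 640 and 510). *Dusp5* was at 202, 145 and 163 against 24, 63 and 80, higher by 1.74 (SE 0.423, adjusted p = 0.0344), and its 3 samples were above the other 21 samples of the series. *Spred1*, whose product brings the Ras inhibitor neurofibromin to the membrane, was at 574, 644 and 540 against 815, 935 and 1141, lower by -0.71 (SE 0.133, adjusted p = 0.0137), and close to MC38-MOCK#1. The *Dusp5* call was lost without sample 2 of MC38-MOCK#2 or any 1 sample of the line labelled MC38-FUT4 (1.61 to 1.91, adjusted p up to 0.157), and that of *Spred1* without the same MC38-MOCK#2 sample or samples 1 or 3 of the labelled line (up to 0.0849). *Krt20* was at 448, 263 and 468 in this line and 1, 0 and 0 in MC38-MOCK#2. Of 5 epithelial markers tested, it was the 1 called higher, and *Vil1*, below 10 in every sample, was the 1 called lower. Of 11 mesenchymal markers 1 was higher and 3 lower, and the part of either list in the result was not tested. *Dusp7*, *Spry2*, *Etv4* and *Etv5* differed by 0.01 to 0.15 and did not pass, and *Spry4* (0.35) passed only without sample 3 of MC38-MOCK#2.

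In MC38-FUT9, 3 of the 9 genes were higher than in MC38-MOCK#2, at the same passages, against 24.1% of 21480 genes. *Dusp7* was at 540, 641 and 536 against 387, 401 and 317, higher by 0.64 (SE 0.118, limma adjusted p = 0.00976), a 1.56-fold change that kept its call without any 1 sample. *Etv5* was at 766, 667 and 839 against 424, 438 and 635, higher by 0.62 (SE 0.169, adjusted p = 0.0388). *Dusp4* was at 251, 314 and 261 against 219, 190 and 155, higher by 0.56 (SE 0.152, adjusted p = 0.0391). None of the 3 overlapped, nor did 36.8% of all genes, and each of the last 2 calls was lost in 5 of the 6 fits without 1 sample: for *Dusp4* all but the one without sample 1 of MC38-MOCK#2 (0.42 to 0.62 where lost, adjusted p up to 0.146), and for *Etv5* all but the one without sample 3 of that line (0.51 to 0.71 where lost, up to 0.163). *Spry2* was higher by 0.57 (SE 0.197, adjusted p = 0.0835), and it and *Spry4* (0.14) passed without sample 3 of MC38-MOCK#2. *Spred1* (0.10) and *Etv4* (-0.09) stood near the MC38-MOCK#2 level.

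The other feedback genes of the pathway are a list of 16, of which 15 were tested. In MC38-COSMC KO, 1 was higher and 1 lower, against 11.6% of all genes called. *Il17rd* (Sef), an inhibitor of FGF signaling, had the smallest adjusted p of the list and fell by 0.89 (SE 0.185, limma adjusted p = 0.0244). Its change in untransfected MC38-WT against MC38-MOCK#1 was close to that, at -0.86 (SE 0.238, limma adjusted p = 0.0896), and did not pass. In the difference of the COSMC changes, 3 were higher and 2 lower, against 22.1% of all genes, led by *Spred3* at 1.57 (SE 0.267, adjusted p = 0.000754). Against MC38-MOCK#2, the line labelled MC38-FUT4 had 3 higher and 3 lower, where 16.1% of all genes were called. MC38-FUT9 had 2 higher and 5 lower, where 24.1% were. *Dusp1*, a stress-induced MAP kinase phosphatase, had the smallest adjusted p of the list in both, with 189 and 89.7 against 1079 in MC38-MOCK#2. In MC38-MOCK#1 *Dusp1* was at 466, and MC38-MOCK#2 was above that by 1.25 (SE 0.391, limma adjusted p = 0.0908).

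Immediate early genes, the first wave of transcripts that ERK and serum response factor switch on, are a list of 20, all tested. In MC38-COSMC KO, 7 were higher and none lower than in MC38-MOCK#1, where 11.6% of all genes were called, and the median change was 0.73 on the log2 scale. *Phlda1* was called with the smallest p, at 735 against 246 (1.60, SE 0.245, limma adjusted p = 0.00822). The count was 0 without sample 1 of MC38-MOCK#1 or sample 2 of MC38-COSMC KO. It was 1 without sample 2 of MC38-MOCK#1 or sample 1 of MC38-COSMC KO, and 2 and 4 without sample 3 of each. In MC38-CMAS KO 2 were higher (5.76% of all genes called), in MC38-WT 3 (5.51%) and in MC38-DKO none (0.0920%), and none was lower. The median changes there were 0.64, 0.75 and 0.11, so untransfected MC38-WT had a median like that of MC38-COSMC KO. Against MC38-CMAS KO, MC38-DKO had none higher and 4 lower, where 6.93% of all genes were called. Of 11 mesenchymal markers, 4 were higher and 1 lower in MC38-COSMC KO, and their part in these counts was not tested. In the difference of the COSMC changes 11 of 20 were higher and none lower, against 22.1% of all genes called in either direction, with a median of 1.1 against 0 over all genes, and the count stayed at 9 to 12 without any 1 sample. *Phlda1* again had the smallest p, at 2.5 (SE 0.27, adjusted p = 1.69e-05). Against MC38-MOCK#2, the line labelled MC38-FUT4 had 6 higher and 4 lower (6 and 7 after rescaling to the same total) and MC38-FUT9 had 4 higher and 6 lower. The shares of all genes called in these lines were 16.1% and 24.1%.

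Of the 25 Ras-ERK core genes, all tested, 5 were higher and 2 lower in MC38-COSMC KO (4 and 3 after rescaling to the same total), led by *Frs2*, an adaptor of FGF receptors, at 0.68 (SE 0.0797, limma adjusted p = 0.00303). In MC38-CMAS KO 4 were higher, and in MC38-DKO none passed. Of all genes, 11.6%, 5.76% and 0.0920% were called in MC38-COSMC KO, MC38-CMAS KO and MC38-DKO. The share was 16.1% in the line labelled MC38-FUT4, 24.1% in MC38-FUT9 and 11.3% between the mock lines. The line labelled MC38-FUT4 had 1 core gene higher and 11 lower than MC38-MOCK#2, with *Ets1* at 1237 against 2293 (-0.89, SE 0.0892, adjusted p = 0.00134), and MC38-MOCK#2 itself had 6 higher and 1 lower than MC38-MOCK#1. In MC38-FUT9 7 were higher and 6 lower. Among receptors, 2 of 13 tested were higher and 2 lower in MC38-COSMC KO, 5 higher and 2 lower in MC38-FUT9, and 1 higher and 5 lower in MC38-MOCK#2 against MC38-MOCK#1. Among ligands, 3 of 17 tested were higher and 2 lower in MC38-COSMC KO, and 5 of 18 higher and 3 lower in the line labelled MC38-FUT4. None of either list passed in MC38-DKO against MC38-MOCK#1, where only 0.0920% of all genes were called.

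**Figure D4:**
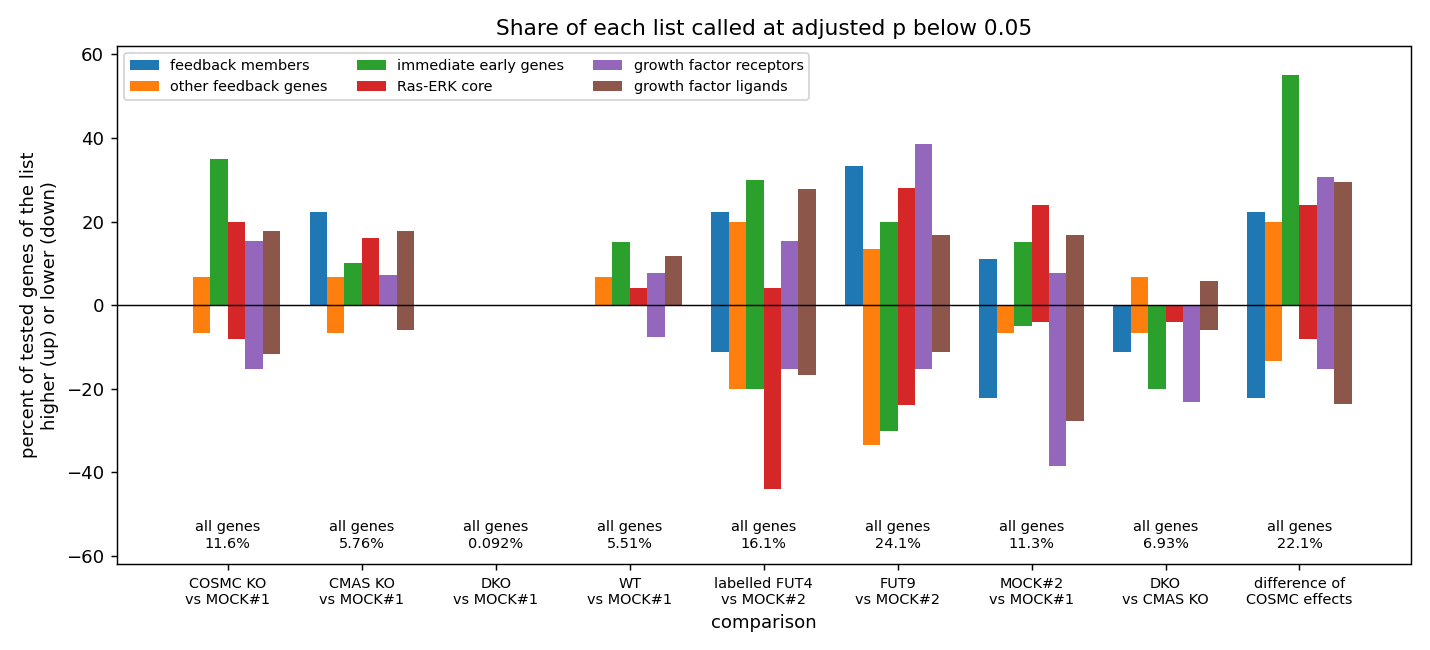
Percent of the tested genes of 6 lists called higher (bars up) or lower (bars down) at adjusted p below 0.05 in each comparison, with the percent of all genes called printed below. Immediate early genes reach 11 of 20 higher in the difference of the COSMC changes, while the 9 feedback members have 2 higher and 2 lower there.

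The 9 genes did not move as 1 block. Over the 24 samples, which share lines of 3 samples and 1 normalization, the strongest of the 36 correlations of log2 values were negative: *Spred1* with *Etv4* (Pearson r = -0.78, Spearman rho -0.77), *Dusp7* with *Etv4* (-0.73, -0.67) and *Dusp4* with *Spred1* (-0.66, -0.52). The highest positive ones were *Spry2* with *Etv5* (0.61, 0.59) and *Spry1* with *Etv4* (0.56, 0.56). Among 10866 other genes with a mean of at least 50, the 2 nearest to each member by r were *Cers6* and *Esr1* for *Dusp4* (both 0.885), *P4ha1* (0.857) and *Fam126a* (0.835) for *Dusp5*, *Irf2bp1* (0.944) and *Rbm15b* (0.938) for *Dusp7*, *Bst2* (0.862) and *Ddx24* (0.853) for *Spry1*, and *Slc39a9* (0.765) and *Runx1* (0.756) for *Spry2*. They were *Sel1l* (0.738) and *Dnal1* (0.736) for *Spry4*, *Xiap* (0.946) and *Cggbp1* (0.925) for *Spred1*, *Actn3* (0.909) and *Sgsm1* (0.884) for *Etv4*, and *Zeb2* (0.917) and *Tgif1* (0.902) for *Etv5*. No pair of members shared a nearest gene. With only 2 of 10866 genes taken for each member, this cannot show whether members moved together. These correlations are descriptions over samples that are not independent.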

How the data were processed

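RNA of 24 samples (8 lines, 3 each) was sequenced by the authors from stranded mRNA libraries. Reads were trimmed, aligned to GRCm38 with HISAT2 2.0.4 and counted with featureCounts (Subread 1.5.0-p3). The deposited values are normalized counts, scaled by library size and TMM with edgeR 3.18.1 and rounded to whole numbers, handled here as a score rather than raw counts. The reads behind each value are unknown, so no counting interval is given, and count tests were not run here. Values were tested as log2(value + 1) with limma 3.58.1 in R 4.3.3 (trend), per pair of lines, on genes with at most 4 zeros among 6 samples (8 of 12 for the difference of COSMC changes, 18 of 24 for the F test), with Benjamini-Hochberg adjusted p below 0.05 over all genes. Fold changes on this scale understate those of low genes. On simulated data, limma called 149 to 179 of 200 genes changed 2-fold, depending on the comparison. The changed genes were drawn from levels above those of *Dusp5* and *Spry1*, so these counts do not cover low genes or smaller changes. Alternatives were another pseudocount, filter or scaling, no trend, a replicate block, 1 fit of 8 lines, a fold cutoff and each sample left out. No 2 samples were identical. The members, lists and motifs were chosen with earlier results of these data, or the sequences, known. Genes are named by rule: the 9 members, the targeted genes, the 2 genes most correlated with each member, and at most the 3 genes of a list with the smallest adjusted p. *Krt20*, *Vil1*, *Vim*, *Epcam* and *Cdh1* were named after their values were seen. Symbols were matched for 52403 of 52636 IDs.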

Additional observations from a re-analysis of the deposited data

Results flagged for a closer look

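The change with COSMC loss differed between lines without and with CMAS targeting for 4 of the 9 genes, by limma's test of that difference itself. On the log2 scale the difference was 1.41 for *Dusp5*, 0.77 for *Spry2*, -2.54 for *Spry1* and -0.39 for *Etv4*. The 2 single knockouts were nearer to each other than to MC38-MOCK#1 or MC38-DKO for *Spry1*. The background of this test is high, at 22.1% of all genes, and *Spry1* rests on values of 2 to 15 per sample. For all 4 genes, untransfected MC38-WT differed from MC38-MOCK#1 in the direction of the single knockouts, though none passed there.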

How the results depend on the processing

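Of 1623 values of single genes under the alternatives, 1482 kept their direction and side of the threshold, 76 lost a call, 31 gained one and 34 turned direction, the last all in genes that had not passed. Apart from fewer samples or a fold cutoff, the cause of a change was not tested. Of the 9 genes, MC38-CMAS KO against MC38-MOCK#1 had 2 called, but 4 with a pseudocount of 4, 0 without the mean-variance trend or with the replicate block, 1 in 1 fit of all 8 lines and 1 above an absolute log2 fold change of 1. The gene called in the fit of all 8 lines was *Etv4*, as lower, and *Dusp5* and *Spry2* both lost their calls there. MC38-WT had 0 called and 2 in 1 fit of all 8 lines. The line labelled MC38-FUT4 had 3, and 1 without the trend, with the replicate block or with samples 1 and 3, both of passage 7, averaged (an alternative chosen after seeing the data). MC38-FUT9 had 3, and 1 without the trend and 0 above the fold cutoff. MC38-MOCK#2 against MC38-MOCK#1 had 3, and 1 without the trend, with the replicate block or above the fold cutoff. MC38-DKO against MC38-CMAS KO had 1, 2 among genes with a mean of at least 10, and 0 without the trend or in 1 fit of all 8 lines. With 1 sample left out, the number called was 0 to 0 in MC38-CMAS KO, 0 to 1 in MC38-WT, 1 to 4 in the line labelled MC38-FUT4, 1 to 4 in MC38-FUT9, 0 to 4 in MC38-MOCK#2 and 0 to 1 in MC38-DKO against MC38-CMAS KO. *Spry4* turned to -0.01 in MC38-CMAS KO after rescaling to the same total and to 0.01 in the difference of the COSMC changes under median-of-ratios scaling. Some results turned direction in at least 1 fit without 1 sample, and their ranges over all such fits follow. For *Spry4* in MC38-CMAS KO against MC38-MOCK#1 the range was -0.06 to 0.09. In MC38-DKO against MC38-MOCK#1 it was -0.34 to 0.07 for *Dusp5*, -0.03 to 0.32 for *Dusp7*, -0.15 to 0.01 for *Etv5*, -0.08 to 0.09 for *Spred1* and -0.40 to 0.02 for *Spry1*. In the line labelled MC38-FUT4 against MC38-MOCK#2 it was -0.11 to 0.26 for *Spry2*, -0.10 to 1.31 for *Spry1* and -0.09 to 0.08 for *Dusp7*. In MC38-FUT9 against MC38-MOCK#2 it was -0.09 to 0.76 for *Dusp5*, -0.01 to 0.40 for *Spry4*, -0.02 to 0.22 for *Spred1* and -1.30 to 0.10 for *Spry1*. In MC38-MOCK#2 against MC38-MOCK#1 it was -0.37 to 0.48 for *Dusp5*, -0.31 to 0.06 for *Spry2* and -0.27 to 0.02 for *Etv5*. It was -0.12 to 0.18 for *Dusp4* in MC38-DKO against MC38-CMAS KO, and -0.14 to 0.12 for *Spry4* in the difference of the COSMC changes. The replicate numbers did not pair the samples by the correlation of their deviations (-0.219 to 0.27, not above 0.1 for every pair of any comparison), although the 4 lines of the knockout layout share passages by number. Over all genes, the number called against MC38-MOCK#1 with the replicate block was 4, against 2563 without it, in MC38-COSMC KO, 1 against 1268 in MC38-CMAS KO, 0 against 20 in MC38-DKO and 0 against 1192 in MC38-WT. It was 1756 against 3509 in the line labelled MC38-FUT4 and 795 against 1515 for MC38-DKO against MC38-CMAS KO. With the block, the difference of the COSMC changes kept 4 of the 9 genes called. The *Spry2* and *Etv5* differences between 8 lines each lost their call under at least 1 alternative. Without the trend, all-gene counts were 1135, 726, 40 and 717 for MC38-COSMC KO, MC38-CMAS KO, MC38-DKO and MC38-WT, 2270 and 3430 for the lines labelled MC38-FUT4 and MC38-FUT9, 1389 for MC38-MOCK#2 and 692 for MC38-DKO against MC38-CMAS KO. In 1 fit of all 8 lines they were 2207, 159 and 2981 for MC38-CMAS KO, MC38-DKO and MC38-WT, 3976 for MC38-MOCK#2 and 2403 for MC38-DKO against MC38-CMAS KO. With the 2 samples of passage 7 averaged, the line labelled MC38-FUT4 had 1727. The reads behind the values are unknown, so counting error was not separated from the spread between samples.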
